A study of Canis lupus familiaris with 15 samples.

Results

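The collagen gene family was described across primary osteosarcomas of 15 pet dogs, through every gene whose symbol in the platform annotation has the form COL, a number, A and a number. Each gene was represented by its brightest probeset, the one with the highest mean log2 signal over the 15 arrays among probesets with a single symbol. This gave 35 collagen genes of 15115 genes with a single symbol, and they had 95 probesets, between 1 and 8 per gene. COL18A1, COL6A2, COL8A1, COL9A2, COL9A3 and COL11A1 were not analysed here, so the counts by class do not cover the whole family. The tumors were chemotherapy-naive pieces, snap frozen at limb amputation, and 1 Affymetrix Canine 2.0 array was run per dog. The DFI < 100 cohort held 8 dogs whose disease free interval (DFI) after surgery was under 100 days, and the DFI > 300 cohort held 7 dogs whose interval exceeded 300 days. All dogs later received doxorubicin and/or a platinum drug, and the study asked which transcripts separate the cohorts.

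No genotype beyond breed was given. The DFI < 100 cohort held 3 Greyhounds, a Rottweiler, a Labrador Ret., a Doberman, a Golden Ret. and a mixed breed dog, aged 4.4 to 10.8 years. The DFI > 300 cohort held 1 Greyhound, a Rottweiler, a Golden Ret. and 4 mixed breed dogs, aged 7.1 to 13.4 years. Tumors that the study typed as giant cell lay in the DFI < 100 cohort alone. No normal bone was analysed here, so levels are levels in tumors. A piece of tumor holds tumor cells, vessels and stroma together, so that fewer cells of a type and less RNA per cell cannot be told apart.

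Collagens are proteins of the extracellular matrix in which chains with repeated glycine triplets wind into a triple helix. Fibrillar collagens pack into the fibers of bone, cartilage, skin and vessel walls, and type I collagen is the main protein of the bone matrix that osteoblasts lay down. Type IV collagen forms the sheet of basement membranes, and FACIT collagens (fibril-associated collagens with interrupted triple helices) sit on the surface of fibrils. The remaining types include the beaded filaments of type VI, the networks of types VIII and X, the anchoring fibrils of type VII, transmembrane collagens and the multiplexins of vessel walls.

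All levels are log2 PLIER signals, so that 1 unit is a doubling. The 64 reporter control probesets gave a background level of 6.79, their 95th percentile, and genes whose mean did not exceed it are called near background. By this level 33.9% of 42860 probesets were above background, and 18 of the 35 collagen genes were. They were 7 of 9 fibrillar genes, 2 of 6 basement membrane genes, 5 of 8 FACIT genes and 4 of 12 others. Signals of different probesets depend on their probes, so an order of levels between genes is an order of signals and not of RNA amounts. Of markers for the labelled tissue, 4 of 7 measured osteoblast genes were above the reporter level (RUNX2, ALPL, IBSP and SPP1), and BGLAP, PHEX and DMP1 were near background on average. None of the 3 measured epithelial markers was above it.

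**Figure D1:**
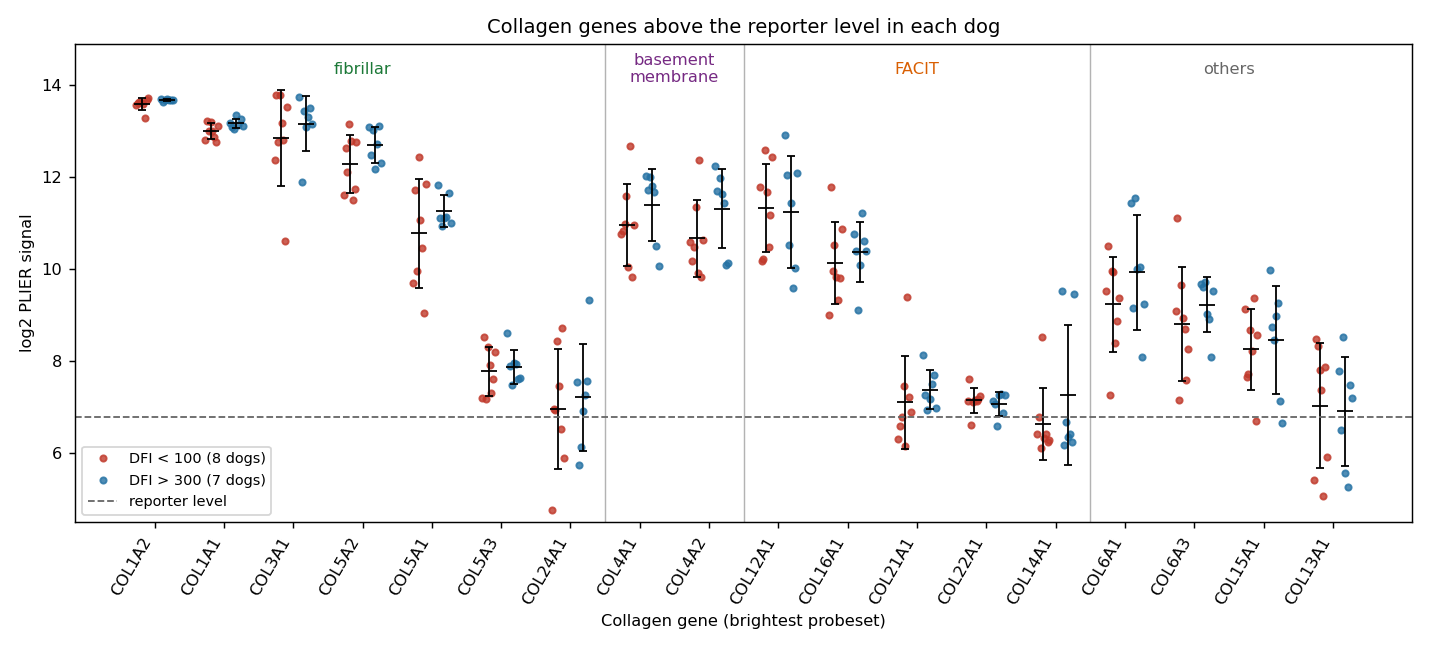
Log2 PLIER signal of the 18 collagen genes above the reporter level, by class, with 1 point per dog (red DFI < 100, 8 dogs; blue DFI > 300, 7 dogs) and black bars for mean ± SD. The dashed line is the reporter level of 6.79, and the points of both cohorts overlap for every gene.

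The chains of type I collagen gave signals near the top of the arrays. COL1A2, which encodes the second chain of type I, averaged 13.64 ± 0.11 (SD, n = 15), and only 4 probesets on the array were brighter. COL1A1, which encodes the more abundant chain, averaged 13.08 ± 0.17 (SD, n = 15). In the DFI < 100 cohort COL1A1 ran from 12.76 over a median of 13.01 to 13.22, and in the DFI > 300 cohort from 13.06 over 13.13 to 13.35. The cohorts overlapped, although 5 of the 8 DFI < 100 dogs lay below every DFI > 300 dog. For COL1A2 the DFI < 100 values ran from 13.29 over 13.62 to 13.72 and the DFI > 300 values from 13.64 over 13.69 to 13.71. Here 6 of 8 DFI < 100 dogs lay below every DFI > 300 dog, and 1 lay above them all.

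The mean difference, DFI < 100 minus DFI > 300, was -0.17 (SE 0.11) for COL1A1 and -0.09 (SE 0.10) for COL1A2, or 1.13-fold and 1.07-fold lower in the DFI < 100 cohort. Neither passed the test in limma, with unadjusted p of 0.139 and 0.353 and an adjusted p of 0.999 for each. Limma takes part of each gene's spread from all probesets, and these genes spread less than most. With each gene's own values alone, an exact permutation test (2-sided, every one of the 6435 ways to divide the dogs) gave unadjusted p of 0.0444 for COL1A1 and 0.0294 for COL1A2. The COL1A2 difference shrank to -0.049 without dog 208911, the lowest dog for that gene. The unadjusted p of the methods' t-test were 0.0415 for COL1A1 and 0.0904 for COL1A2, and no probeset of the array had an adjusted p under 0.05 by it.

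The narrow spread of type I collagen held for its brightest probesets and not for the dimmer ones. The other COL1A1 probesets averaged 12.81 and 12.49, with SDs of 0.61 and 0.56. For COL1A2 the 2 next probesets had SDs of 0.19 and 0.16 at means of 13.19 and 13.05, and the dimmest, at 10.47, had an SD of 0.81. Every COL1A1 and COL1A2 probeset had a lower mean in the DFI < 100 cohort, by 0.09 to 0.21. The part that closeness to the upper end of the signal range plays in the narrow spread was not tested.

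**Figure D2:**
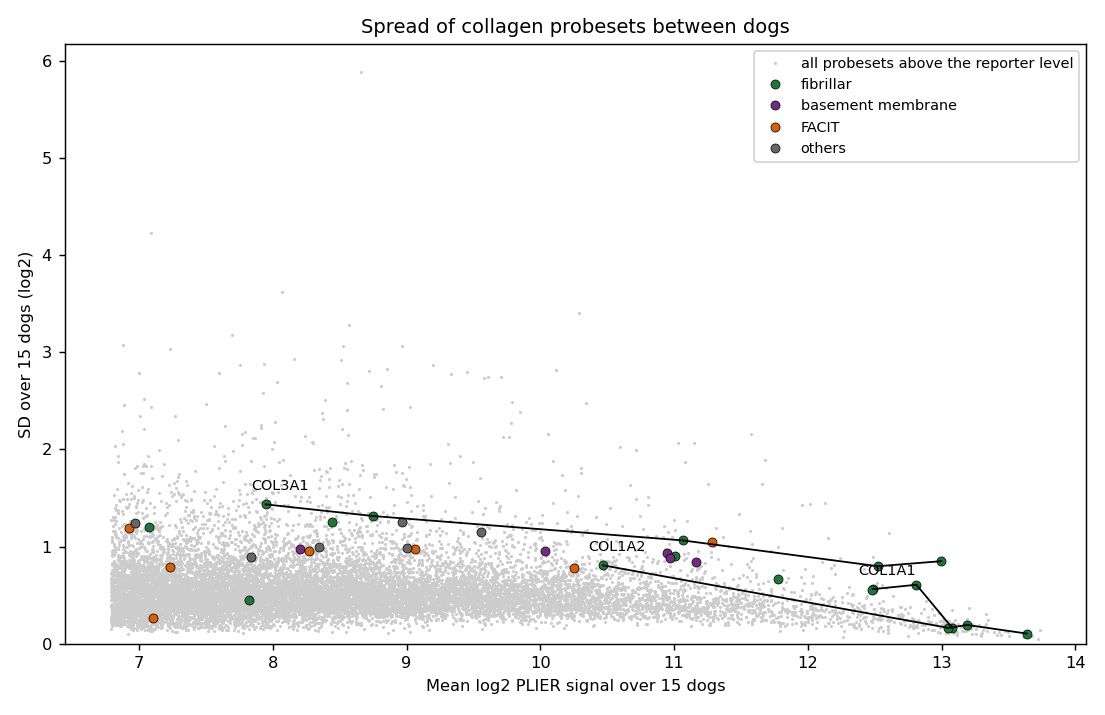
SD of the log2 signal over 15 dogs (y axis) against its mean (x axis) for collagen probesets above the reporter level, colored by class, over all 14518 such probesets in grey. Black lines join the probesets of COL1A1, COL1A2 and COL3A1; the brightest type I probesets lie at an SD of 0.11 to 0.19 and the dimmer ones at 0.56 to 0.81.

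COL3A1 encodes the chain of type III collagen, which forms thin fibrils in stroma and vessel walls. By the brightest probesets its signal was close to that of COL1A1 and below that of COL1A2, and it was much more variable than both. It averaged 12.998 ± 0.850 (SD, n = 15), and its SD stood at percentile 88.3 of probesets above the reporter level, against 0.902 for COL1A1. The gap was narrower for dimmer probesets, with SDs of 0.61 and 0.56 for COL1A1 at means of 12.81 and 12.49. The COL3A1 probeset at a mean of 12.52 had an SD of 0.80. For the brightest COL3A1 probeset, DFI < 100 values ran from 10.61 over a median of 12.99 to 13.79, and DFI > 300 values from 11.90 over 13.32 to 13.74. The lowest value came from dog 212759 of the DFI < 100 cohort, and the next lowest from dog 180119 of the DFI > 300 cohort. The cohort difference was -0.31 (SE 0.43; limma unadjusted p = 0.476). It rested on 1 dog, since it was 0.01 without dog 212759. The other 4 COL3A1 probesets, all above the reporter level, had r of 0.986, 0.962, 0.697 and 0.619 with the brightest across dogs, from the brighter to the dimmer. The dimmer pair gave cohort differences of -0.03 and -0.19.

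Type V collagen regulates the diameter of type I fibrils, and its chains COL5A1 and COL5A2 averaged 11.004 ± 0.904 and 12.48 ± 0.56 (SD, n = 15). COL5A1 spread far more in the DFI < 100 cohort, from 9.04 to 12.45 (SD 1.19, n = 8), than in the DFI > 300 cohort, from 10.95 to 11.84 (SD 0.34, n = 7). This difference in spread was not tested. The DFI < 100 dogs lay on both sides, with 4 below and 2 above every DFI > 300 dog. The cohort differences were -0.48 (SE 0.44) for COL5A1 and -0.41 (SE 0.27) for COL5A2, and the unadjusted limma p were 0.297 and 0.147. COL5A3, a further chain, was dim at 7.82 ± 0.45 (SD, n = 15) and differed by -0.10 (SE 0.24).

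COL24A1, a fibrillar collagen of developing bone, was above the reporter level in 10 of 15 dogs, so that its low values are background signal. It was highest in dog 208513, at 9.34, and lowest in dog 153599, at 4.75. The cohorts overlapped over most of that range, at 6.95 ± 1.30 (SD, n = 8) in DFI < 100 and 7.21 ± 1.17 (SD, n = 7) in DFI > 300. COL11A2, a chain of the cartilage collagen type XI, was near background at 5.77 ± 0.71 (SD, n = 15), and dog 204714 alone exceeded the reporter level, at 6.83.

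Type IV collagen divided into a bright pair and a dim remainder. COL4A1 and COL4A2, the chains found in almost all basement membranes, averaged 11.17 ± 0.84 and 10.97 ± 0.89 (SD, n = 15). COL4A3, COL4A4, COL4A5 and COL4A6, the chains of specialised membranes such as that of the kidney glomerulus, all averaged between 4.09 and 5.98, and no dog exceeded the reporter level for any of them. COL4A1 ran from 9.83 over a median of 10.89 to 12.69 in the DFI < 100 cohort and from 10.07 over 11.73 to 12.03 in the DFI > 300 cohort. For COL4A2 the values were 9.84, 10.54 and 12.37 against 10.08, 11.64 and 12.24.

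In both genes dog 208911 of the DFI < 100 cohort was highest and dog 212759 of the same cohort lowest. The cohort differences were -0.44 (SE 0.42) for COL4A1 and -0.65 (SE 0.42) for COL4A2, 1.36-fold and 1.57-fold lower in the DFI < 100 cohort, with unadjusted limma p of 0.302 and 0.141. Without dog 208911 the COL4A2 difference was -0.89, and it then passed the unadjusted limma threshold of 0.05. At the other end it was -0.50 without dog 168327.

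COL4A3 was the only collagen gene with an unadjusted limma p under 0.05 for the cohort. Its mean was 4.62 ± 0.38 (SD, n = 8) in the DFI < 100 cohort and 3.47 ± 0.87 (SD, n = 7) in the DFI > 300 cohort, a difference of 1.15 (SE 0.33; unadjusted p = 0.00307, adjusted p = 0.999 in limma). The DFI < 100 values ran from 4.05 to 5.26 and the DFI > 300 values from 1.78 to 4.43, so that 6 of 8 and 6 of 7 dogs lay outside the other cohort's range. All of these values lie below the reporter level, and the second COL4A3 probeset differed by 0.01. COL4A4, whose gene lies beside COL4A3 in the RefSeq annotation of the dog assembly UU_Cfam_GSD_1.0, differed by 0.13 (SE 0.14) on its brightest probeset. Its other probesets, all near background, differed by 0.32, 0.13 and 2.02. With each gene's probesets averaged, COL4A3 and COL4A4 both had an unadjusted limma p under 0.05.

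Among FACIT collagens COL12A1, which coats type I fibrils in dense tissue, and COL16A1 were the brightest. COL12A1 averaged 11.28 ± 1.05 and COL16A1 10.25 ± 0.78 (SD, n = 15). COL12A1 ranged from 9.59 in dog 190030 to 12.91 in dog 168327, both of the DFI > 300 cohort, so its extremes fell within a single cohort. Its cohort difference was 0.09 (SE 0.53), and its dimmer probesets above the reporter level gave -0.02 and -0.25. COL16A1 was highest in dog 173175, at 11.78, and its difference was -0.23 (SE 0.39).

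COL14A1, a FACIT collagen of fibril-rich soft tissue, was high in 3 dogs and near background in the others. It was 9.52 in dog 168327 and 9.45 in dog 208513 of the DFI > 300 cohort, and 8.53 in dog 204714 of the DFI < 100 cohort. The other 12 dogs lay between 6.10 and 6.77. The cohort difference of COL14A1, -0.63 (SE 0.58), was therefore set by 3 dogs, and it was -0.25 without dog 168327. On the second COL14A1 probeset the same 3 dogs were highest, at 9.59, 9.71 and 8.35, and the next dog was at 6.55. Because the values form separate clusters, no correlation of COL14A1 with other genes or lists is given.

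COL21A1, a FACIT collagen of vessel walls, was high in a single dog. Dog 208911 reached 9.39, and the other DFI < 100 dogs lay between 6.16 and 7.45. The DFI > 300 dogs lay between 6.94 and 8.13, above 5 of the 8 DFI < 100 dogs, and the cohort difference of -0.28 (SE 0.40) became -0.61 without dog 208911. COL21A1 was above the reporter level in 11 of 15 dogs, so both comparisons rest in part on background signal in the DFI < 100 cohort. COL22A1 was even across the dogs, from 6.58 to 7.61. COL9A1, a cartilage FACIT collagen, was near background at 5.27 ± 0.47 (SD, n = 15) and differed by 0.45 (SE 0.22; limma unadjusted p = 0.0595).

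Of the other classes, COL6A1 and COL6A3 had the highest signals. They are chains of type VI collagen, which forms beaded filaments around cells, and COL6A6, a further chain, was near background at 2.91. COL6A1 averaged 9.56 ± 1.16 and COL6A3 9.00 ± 0.98 (SD, n = 15). COL6A1 ran from 7.27 over a median of 9.45 to 10.51 in the DFI < 100 cohort and from 8.08 over 10.01 to 11.54 in the DFI > 300 cohort, with 2 DFI > 300 dogs above every DFI < 100 dog. Its cohort difference, -0.70 (SE 0.56; limma unadjusted p = 0.228), was the most negative of the 35 genes. Its second probeset gave -0.71. COL6A3 differed by -0.41 (SE 0.49), and its highest and lowest dogs, 173175 at 11.12 and 184844 at 7.14, were both of the DFI < 100 cohort.

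COL15A1, a multiplexin of vessel and muscle basement membranes, averaged 8.35 ± 0.996 (SD, n = 15), was highest in dog 168327 at 9.97 and lowest in dog 208513 at 6.65. COL13A1, a transmembrane collagen, ran from 5.07 to 8.53 with an SD of 1.24, and 9 of 15 dogs were above the reporter level. Their cohort differences were -0.20 (SE 0.50) and 0.12 (SE 0.62). COL10A1, the collagen of hypertrophic cartilage, was near background at 6.14 ± 0.72 (SD, n = 15) and differed by 0.55 (SE 0.34; limma unadjusted p = 0.131). Its second probeset was near background in 14 dogs and reached 10.55 in dog 204714. COL25A1, a transmembrane collagen, and COL7A1, the anchoring fibril collagen, were near background and differed by -0.27 (SE 0.20) and 0.40 (SE 0.32).

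Across the family, 0 of 35 genes had an adjusted p under 0.05 in limma for the cohort, as had 0% of all 42860 probesets. At an unadjusted p under 0.05 there was 1 of 35, COL4A3, where 3.68% of all probesets passed. The methods' t-test gave 2 genes at that level, where 1567 of 42860 probesets passed it. The exact permutation test gave 3, and it was not run over all probesets. By direction 21 of 35 genes were lower in the DFI < 100 cohort, with a median difference of -0.09, where 49.1% of all probesets were lower. Of the 18 genes above the reporter level, 15 were lower, with a median of -0.27, where 49.6% of such probesets were lower with a median of 0.00. The 15 included all 7 fibrillar genes above that level. They also included COL14A1, whose mean was above that level in the DFI > 300 cohort, at 7.26, but not in DFI < 100, at 6.63. Its place among the 18 therefore rests on the cohort in which it was higher. The 3 that were not lower were COL12A1, COL13A1 and COL22A1, by 0.08 to 0.12. Of these, COL12A1 and COL13A1 were lower too without Greyhounds or with age as covariate. Some of the 15 turned the other way, COL24A1 to 0.024 without Greyhounds and COL16A1 to 0.042 with its probesets averaged. Without dog 212759 COL3A1 was 0.010 and COL15A1 0.020. Without dog 168327 COL5A3 was 0.026 and COL15A1 0.049. Leaving out single dogs gave 13 to 17 lower genes. Of the 17 genes near background 6 were lower. Genes correlated across dogs, so these counts are not independent observations, and none of the 15 passed in limma by itself, adjusted or not. The cohorts overlapped for all 35 genes, where 0.0187% of all probesets did not overlap.

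**Figure D3:**
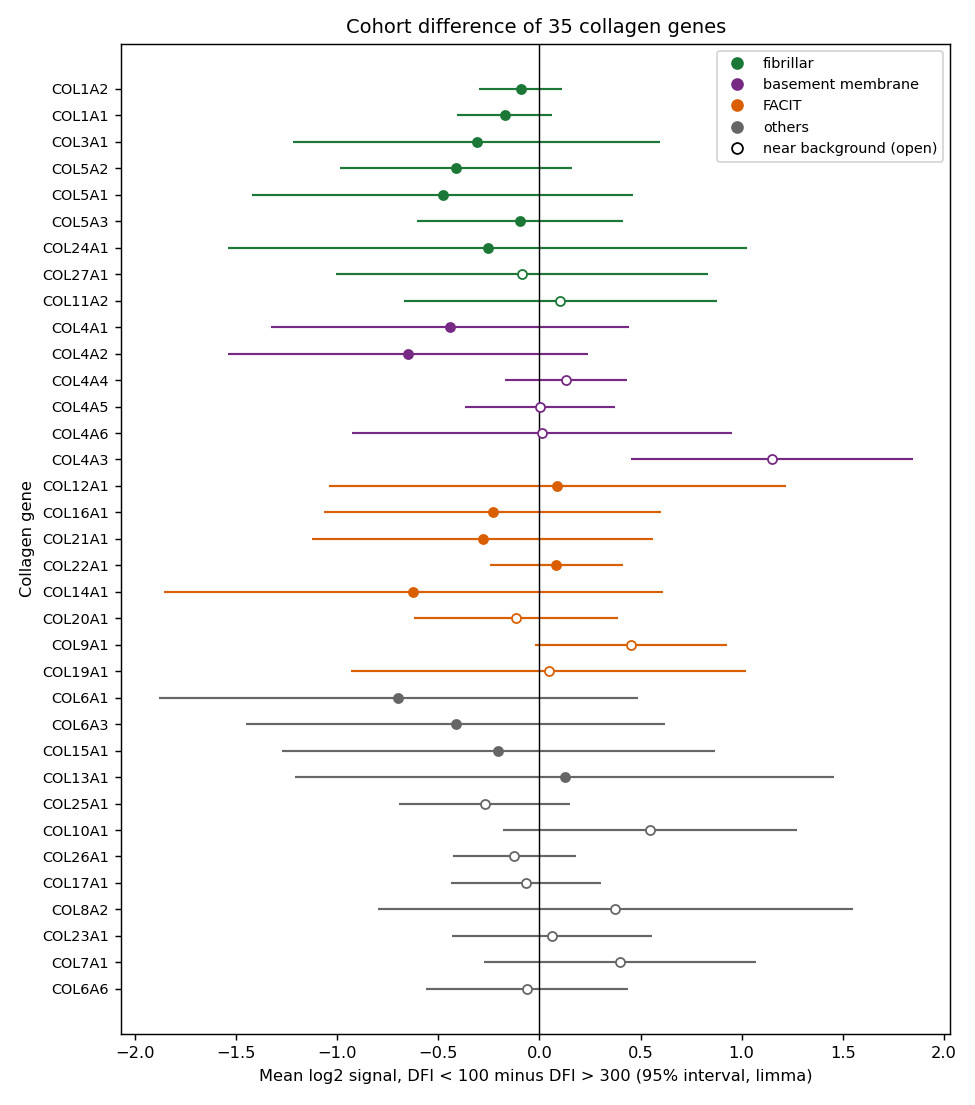
Difference of mean log2 signal, DFI < 100 minus DFI > 300, for 35 collagen genes with the 95% interval from limma (n = 8 and 7), colored by class, with open symbols for genes near background. Of the 18 filled symbols 15 lie left of 0, and the interval of COL4A3 alone lies wholly on one side of 0.

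The intervals show what these arrays could not distinguish. For COL3A1 the 95% interval of the difference ran from -1.22 to 0.60, for COL4A2 from -1.54 to 0.24, and for COL6A1 from -1.88 to 0.49. For the brightest COL1A1 probeset it ran from -0.41 to 0.06, and for the dimmer ones from -0.87 to 0.46 and from -0.80 to 0.43. Leaving out single dogs moved the differences over 1.5 times for several genes. COL6A1 ran from -1.01 without dog 193231 to -0.42 without dog 184844, and COL6A3 from -0.74 without dog 173175 to -0.17 without dog 184844. COL5A1 ran from -0.72 without dog 204714 to -0.23 without dog 212759, COL4A1 from -0.69 without dog 208911 to -0.28 without dog 212759, and COL16A1 from -0.47 without dog 173175 to -0.07 without dog 153599.

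Ratios within an array were taken for the brightest probesets, of which those of type I lie near the top of the signal range, and its part in these values was not tested. COL1A1 minus COL1A2 differed by -0.08, COL3A1 minus COL1A1 by -0.14 and COL4A1 minus COL1A1 by -0.27, with 2-sided exact permutation p of 0.344, 0.742 and 0.542 and adjusted p over these 3 ratios of 0.742 for each. With quantile normalization the first was -0.15 (exact permutation p = 0.0375, adjusted 0.112), and with each gene's probesets averaged -0.05. Leaving out single dogs moved it from -0.11 without dog 173175 to -0.03 without dog 212759, and the last from -0.54 without dog 208911 to -0.14 without dog 208756.

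Most collagen genes above the reporter level lay in the upper part of the spread between dogs. Of the 18 genes above the reporter level, 14 had an SD over the median of 0.51 of all such probesets, and 13 had one over the upper quartile of 0.67. The exceptions to the first count were COL1A1, COL1A2, COL5A3 and COL22A1. Among genes above the reporter level in all 15 dogs the largest SD was that of COL6A1. The SDs of COL13A1, COL24A1 (1.201) and COL14A1 (1.19) were larger but rest in part on background signal, as 9, 10 and 3 of 15 dogs were above that level. Whether collagen genes differ in spread from others was not tested.

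Some dogs were high or low for many collagens. Dog 168327 of the DFI > 300 cohort was above the mean for all 18 genes, with a median deviation of 0.79, and was highest for 4. Dog 204714 of the DFI < 100 cohort was above the mean for 16 of 18, with a median deviation of 0.45. Dog 184844 of the DFI < 100 cohort was below the mean for 17 of 18. Dog 212759 was lowest for 5 genes, among them COL3A1, COL5A1, COL4A1 and COL4A2. Dog 173175, highest for COL3A1, COL16A1, COL22A1 and COL6A3, was also highest for 2 genes whose mean was near background, which were singled out after their values were seen. They were COL27A1, a fibrillar collagen, at 8.80 against 7.46 in the next dog with 4 dogs above the reporter level, and COL8A2, a network collagen, at 8.16 against 6.29 in the next. Dog 173175 also had the highest mean of the osteoblast markers, 9.85.

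Chains of a single collagen type followed each other across dogs to different degrees, and 6 pairs were compared (n = 15, permutation p, adjusted over the 6). COL4A1 and COL4A2, which lie side by side in the RefSeq annotation, had r = 0.966 and rho = 0.975, with an adjusted permutation p of 6e-05 for each, from the smallest p that the permutations can give. Within cohorts their r was 0.972 and 0.973, and it was 0.960 without dogs 208911 and 212759, the farthest from the median. COL5A1 and COL5A2 had r = 0.816 and rho = 0.761 (adjusted permutation p = 0.00072 and 0.00226), and r was 0.861 within DFI < 100, 0.612 within DFI > 300 and 0.727 without the 2 farthest dogs. For COL5A1 and COL5A3 r was 0.754 and rho 0.861 (adjusted permutation p = 0.00228 and 0.00027), with 0.824 and 0.628 within cohorts and 0.824 without the 2 farthest.

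COL6A1 and COL6A3 had r = 0.729 and rho = 0.768 (adjusted permutation p = 0.00345 and 0.0022), 0.834 and 0.680 within DFI < 100 and DFI > 300, and 0.619 without the 2 farthest dogs. COL5A2 and COL5A3 had r = 0.630 and rho = 0.579 (adjusted permutation p = 0.0157 and 0.0327). That relation was 0.838 within DFI < 100 and 0.110 within DFI > 300, and it rested in part on the 2 farthest dogs, without which r was 0.446. The 2 chains of type I, COL1A1 and COL1A2, gave r = 0.456 and rho = 0.518 (adjusted permutation p = 0.0958 and 0.0498), the lowest r of the 6 pairs, with 0.286 and 0.491 within cohorts. It was 0.671 without the 2 farthest dogs. Both genes had a narrow range of signals, and its part in this r was not tested.

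**Figure D4:**
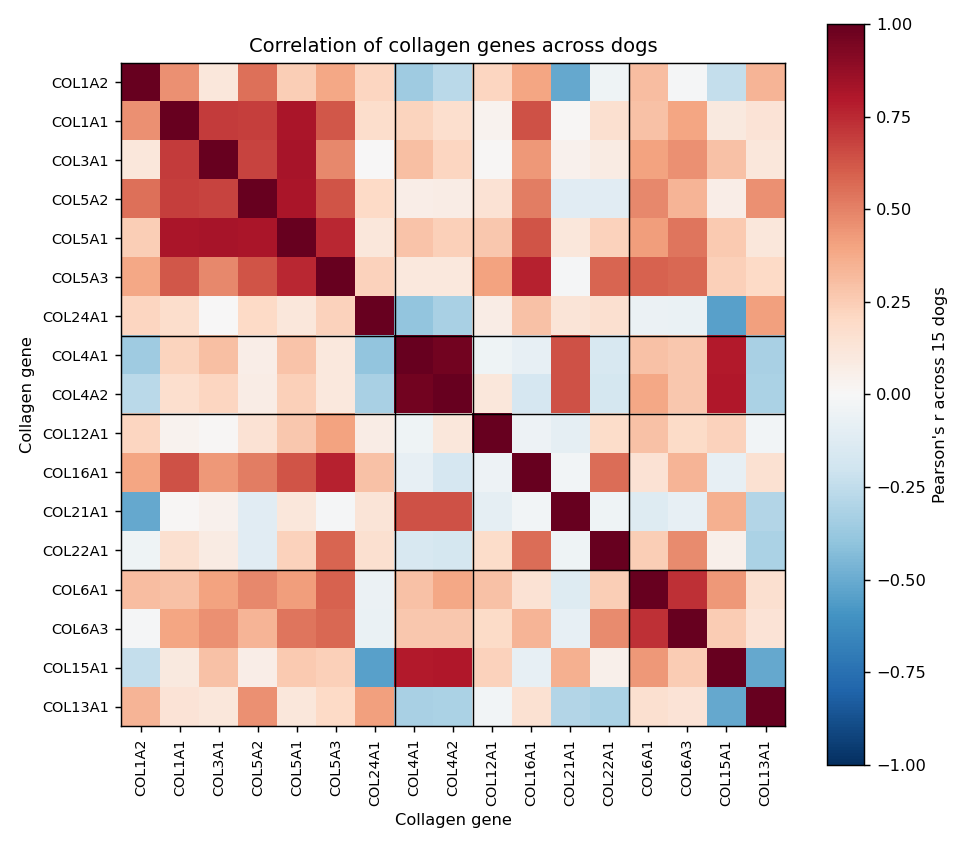
Pearson's r across 15 dogs between the collagen genes above the reporter level other than COL14A1, ordered by class with black lines between classes, red for positive and blue for negative. The bright block at top left holds COL1A1, COL3A1 and type V, and COL4A1 and COL4A2 (0.966) form a second block that COL15A1 follows.

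Pairs of different types were described without a test, since all share the same arrays. Over 130 such pairs, COL14A1 left out, the median r was 0.20, between -0.54 and 0.83, and 98 were above 0. The highest was COL3A1 with COL5A1, at 0.825. COL1A1 with COL5A1 reached 0.817 and COL4A2 with COL15A1 reached 0.801. COL3A1 lies beside COL5A2 in the RefSeq annotation, and these neighbors had r = 0.676.

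Some collagens were set against markers of the cells known to make them, in 10 relations with lists that hold no collagen, adjusted over the 10. The relation of COL14A1 with the smooth muscle and pericyte list is among the 10 but is not given. COL4A1 followed the mean of 10 endothelial genes, with r = 0.886 and rho = 0.836 (adjusted permutation p = 1e-04 and 0.0018, n = 15). Within the DFI < 100 and DFI > 300 cohorts r was 0.947 and 0.840, and without dogs 208911 and 208513, the farthest on the list, it was 0.862. COL4A2 gave r = 0.781 and rho = 0.789 (adjusted permutation p = 0.0007 and 0.0034), with 0.919 and 0.701 within cohorts and 0.757 without the 2 dogs. COL15A1 gave r = 0.645 and rho = 0.646 (adjusted permutation p = 0.0268 and 0.0358), with 0.587 and 0.748 within cohorts, and it rested in part on those dogs, as r was 0.493 without them.

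The endothelial list mean itself ran from 6.73 over a median of 7.30 to 8.66 in the DFI < 100 cohort and from 6.37 over 7.59 to 7.74 in the DFI > 300 cohort. Dog 208911 was highest for the list as for COL4A1, COL4A2 and COL21A1. Of its 10 genes 6 were above the reporter level, and CDH5, TEK, ESAM and CLDN5 were not. The part of vessel content in the cohort differences of type IV collagen was not tested.

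**Figure D5:**
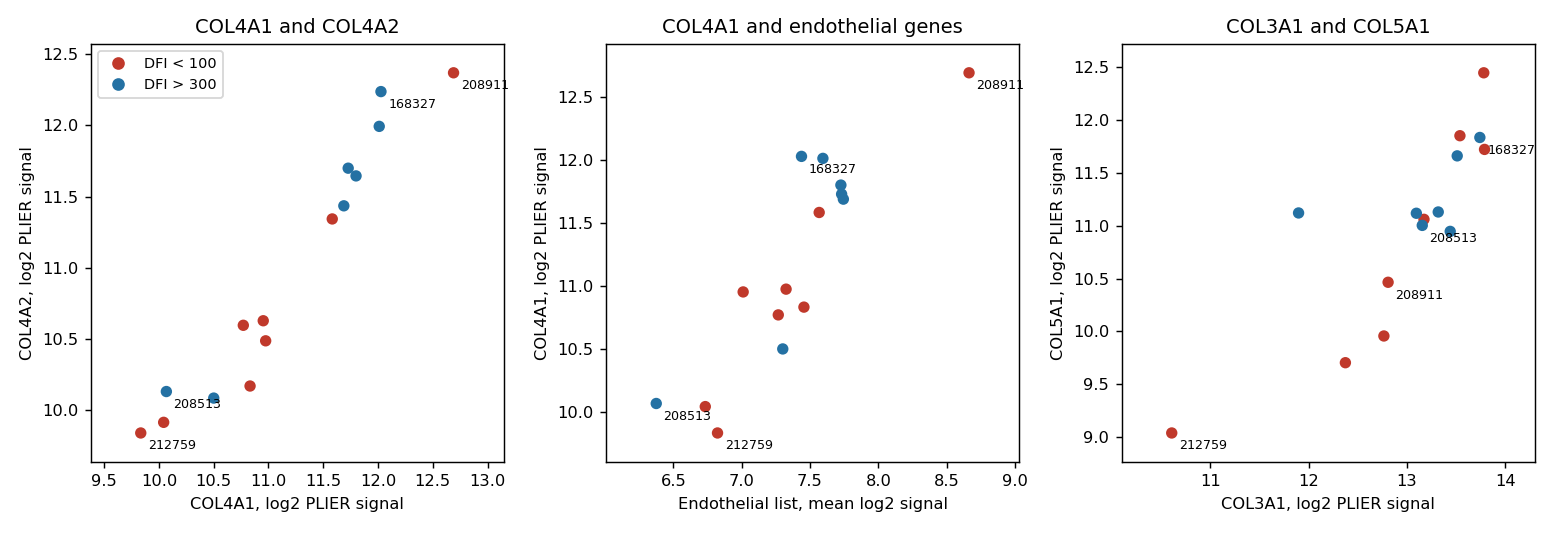
Scatter plots with 1 point per dog (red DFI < 100, blue DFI > 300), of COL4A2 against COL4A1, of COL4A1 against the mean log2 signal of 10 endothelial genes, and of COL5A1 against COL3A1, all in log2 PLIER signal, with 4 dogs labelled by number. The r across 15 dogs were 0.966, 0.886 and 0.825, and dog 212759 lies at the low end of the first and the last.

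COL1A1 and the mean of the 7 measured osteoblast genes had r = 0.424 and rho = 0.561 (adjusted permutation p = 0.228 and 0.0792), with 0.518 and 0.710 within cohorts and 0.373 without the 2 farthest dogs. For COL1A2 r was 0.129 and rho 0.161 (adjusted permutation p = 0.720 for both). COL11A2 and the mean of 10 cartilage genes gave r = 0.561 and rho = 0.468 (adjusted permutation p = 0.0699 and 0.162), and 0.458 without the 2 farthest dogs. COL9A1, COL10A1 and, with the smooth muscle and pericyte list, COL6A3 gave r of 0.171, -0.145 and 0.063, and none passed the permutation test. Only 3 of 10 cartilage genes were above the reporter level.

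Collagen chains are modified, cut and crosslinked by other proteins, and 27 genes for these steps were measured. They came from a list of 35 symbols, some of which are older names of other genes on the list. The DFI < 100 cohort had the higher mean for 10 of the 27 and the lower for 17, with a median difference of -0.09. Over all probesets 49.1% were lower. In limma 0 of the 27 passed at an adjusted or an unadjusted p under 0.05, where 0% and 3.68% of all probesets did. P4HA3 had the smallest unadjusted limma p of the 27, 0.122, with a difference of -0.59 (SE 0.36). BMP1 differed by -0.41 (SE 0.28). SERPINH1, the collagen chaperone, differed by 0.46 (SE 0.30), and PCOLCE, an enhancer of procollagen cleavage, by -0.39 (SE 0.31). LOX, a crosslinking enzyme, differed by 0.38 (SE 0.73). The list mean of these genes was highest in dog 168327, at 9.00, and lowest in dog 153599, at 7.75.

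Of 10 listed receptors for collagen, 9 were measured. In the DFI < 100 cohort 3 had a higher mean and 6 a lower one, with a median difference of -0.29, where 49.1% of all probesets were lower. None had an adjusted p under 0.05, and 3 of 9 had an unadjusted limma p under 0.05, where 3.68% of all probesets did. ITGA1, the alpha 1 integrin chain, differed by -1.28 (SE 0.40; limma unadjusted p = 0.00608). DDR1, a collagen-binding receptor kinase, differed by -0.80 (SE 0.33; limma unadjusted p = 0.03), and ITGB1, the beta 1 integrin chain, by -0.53 (SE 0.22; limma unadjusted p = 0.0331). ITGA1 was near background on average, at 6.53.

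The cohorts differed in age, so the slope of each collagen gene on age was fitted beside the cohort. In limma 0 of 35 genes passed at an adjusted p under 0.05, with a smallest adjusted p of 0.893, as did 0% of all probesets. At an unadjusted p under 0.05 there were 3 of 35, where 5.55% of all probesets passed. COL10A1 had a slope of 0.19 per year (SE 0.07; limma unadjusted p = 0.0121). The slope was 0.16 for COL4A3 (SE 0.07; limma unadjusted p = 0.0339) and -0.27 for COL14A1 (SE 0.12; limma unadjusted p = 0.0437). The first and second are near background, and the last is the gene that was high in 3 dogs, aged 7.1, 8 and 8 years. Slopes were below 0 for 22 of 35 genes, where 47.5% of all probesets were, and for 15 of the 18 genes above the reporter level, where 51.8% of such probesets were. All 9 fibrillar genes were among the 22, but 0 of them had an unadjusted limma p under 0.05. Some of their slopes were near 0, such as -0.0013 (SE 0.023) for COL1A2 and -0.0052 (SE 0.066) for COL5A2. As genes correlated across dogs, these counts too are not independent observations. The count of 3 was 5 without Greyhounds and 0 without the cohort term, where the COL4A3 slope was -0.0081.

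Other probesets of the same genes mostly moved as the brightest did. There were 18 further probesets above the reporter level, from 10 genes. Their r with the brightest ran from 0.298 to 0.988 with a median of 0.847, and 16 of 18 had a cohort difference of the same sign. The exceptions were both of COL12A1. The lowest r was that of a COL1A2 probeset. The remaining 42 probesets were near background.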

How the data were processed

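As deposited, the values were intensities, a PLIER signal per probeset and array that the authors computed in Affymetrix Expression Console, on the linear scale and without a stated version. Each array came from a different dog. The methods name 2 hybridization batches, but which array fell in which batch is not given in the sources used here. Neither RMA nor qRT-PCR values were analysed here. Of 43035 probesets, 175 controls were left out and log2 was taken of the other 42860 without an offset. Cohorts and age were fitted with limma 3.58.1 (R 4.3.3), adjusted by Benjamini-Hochberg over 42860 probesets, and the methods' t-test was run beside it. Correlations used 100000 2-sided permutations (scipy 1.17.1). Scripts were tested on simulated data. The number of arrays limits the precision, and p-values measure the spread between dogs.

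Members and lists were chosen with earlier results of these data known. Genes named were COL1A1, COL1A2 and COL3A1, in each class the 4 with the smallest cohort p, the 6 with the largest SD, the 3 with the smallest age p, members of the pairs and relations, and genes whose probesets disagree in sign. The alternatives were an offset of 16, quantile normalization, a filter at the reporter level, a trended robust fit, array weights, a 3' to 5' signal ratio or age as covariate, the mean of a gene's probesets, leaving out 4 Greyhounds or each dog, and other tests. One collagen gene is not reported here, and 1 probeset with several symbols was not used.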

Additional observations from a re-analysis of the deposited data

Results flagged for a closer look

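In 36 sets of values (18 collagen genes above the reporter level in 2 cohorts), the highest or lowest dog was compared with its nearest neighbor by Dixon's ratio, which chance passes in about 1 in 20 sets, and 6 passed. In the DFI < 100 cohort COL1A2 was 13.29 in dog 208911, with the next dog at 13.58. COL3A1 was 10.61 in dog 212759, with the next at 12.37. COL21A1 was 9.39 in dog 208911, with the next at 7.45, and COL14A1 was 8.53 in dog 204714, with the next at 6.77. In the DFI > 300 cohort COL3A1 was 11.90 in dog 180119, with the next at 13.09, and COL5A3 was 8.60 in dog 168327, with the next at 7.96. Dog 208911 was thus lowest for COL1A2 and highest for COL21A1.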

How the results depend on the processing

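Under the alternatives, 598 summary values and 661 single gene values were called unchanged. For this, counts, medians and spreads had to stay within a set margin. Values with a test had to keep their sign and their side of an adjusted p of 0.05. No alternative gave a collagen gene an adjusted p under 0.05 in limma, so for single genes only the sign could change. A change in a single gene's unadjusted p was not counted. The exceptions follow, and the cause was not tested. The number of genes with an unadjusted p under 0.05 for the cohort, 1 in the report, was 0 among probesets above the reporter level, where fewer genes were tested, 2 with array weights, 2 with a gene's probesets averaged, 2 without Greyhounds, 2 by the methods' t-test, 3 with age as covariate and 3 by the exact permutation test, and it ran from 1 to 4 when single dogs were left out, with 4 without dog 208911. Over all 42860 probesets that number was 1578 in the report, 1955 with array weights and 1528 without Greyhounds. It was 1567 by the methods' t-test, 1957 with age as covariate and 1681 without dog 208911. Some differences, between -0.31 and 0.12 in the report, turned sign. With array weights COL13A1 was -0.021. With a gene's probesets averaged COL12A1 was -0.043, COL16A1 0.042 and COL25A1 0.25. Without Greyhounds COL12A1 was -0.026, COL13A1 -0.017 and COL24A1 0.024. With age as covariate COL11A2 was -0.26, COL12A1 -0.22 and COL13A1 -0.33. Leaving out single dogs moved COL11A2 from -0.053 to 0.26, COL12A1 from -0.19 to 0.37, COL13A1 from -0.15 to 0.40, COL15A1 from -0.50 to 0.049, COL24A1 from -0.51 to 0.10, COL3A1 from -0.52 to 0.010, COL5A3 from -0.20 to 0.026 and the COL3A1 minus COL1A1 ratio difference from -0.34 to 0.15. The number of genes with an unadjusted p under 0.05 for age, 3 in the report, was 1 among probesets above the reporter level, 1 with array weights, 1 with the probeset of the highest single value (an alternative chosen after seeing the data), 5 without Greyhounds and 0 without a cohort term, and from 1 to 5 when single dogs were left out, with 1 without dog 190030 and 5 without dog 184844. Without Greyhounds the median age slope was -0.037 for all 35 genes and -0.17 for the 18 above the reporter level, and the latter ran from -0.089 without dog 208513 to -0.013 without dog 212759. Without a cohort term the COL4A3 slope was -0.0081. Among correlations, COL1A1 with COL1A2 was 0.671 without the 2 farthest dogs, with a range of 0.369 to 0.615 when single dogs were left out. Within the DFI > 300 cohort of 7 dogs r was 0.612 for COL5A1 with COL5A2, 0.628 for COL5A1 with COL5A3, 0.110 for COL5A2 with COL5A3, 0.680 for COL6A1 with COL6A3, 0.840 for COL4A1, 0.701 for COL4A2 and 0.748 for COL15A1 with endothelial genes, and -0.072 for COL9A1 with cartilage genes, and none of these passed after adjustment. Within DFI < 100 it was 0.587 for COL15A1 with endothelial genes and -0.26 for COL6A3 with the smooth muscle and pericyte list. Without the 2 farthest dogs COL5A2 with COL5A3 was 0.446 and COL15A1 with endothelial genes 0.493. Leaving out single dogs gave -0.31 to 0.055 for COL10A1 and 0.493 to 0.724 for COL11A2 with cartilage genes, 0.531 to 0.709 for COL15A1 with endothelial genes and -0.046 to 0.28 for COL6A3 with the smooth muscle and pericyte list. No paired analysis was possible because the cohorts hold different dogs and share no replicate numbers. Signals near background limit 17 of the 35 genes.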
